A study of Mus musculus with 4 samples.

Results

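The mitochondrially encoded transcripts described here are those of ND1, ND2, ND3, ND4, ND4L, ND5, ND6, COX1, COX3 and CYTB, 10 of the 22180 genes measured. They were chosen as the protein-coding genes of the mouse mitochondrial genome that had a row with a single gene symbol in the platform annotation. A gene's row was to be chosen by its measured level, the highest mean log2 intensity over the 4 arrays. Each of these genes had 1 row, so that this level decided no row. The set of genes and the gene lists below were, however, chosen with earlier results of these data known. Their counts and p-values are therefore not those of genes picked without sight of the data. Of the 13 protein-coding genes that the RefSeq gene table places on the mitochondrial genome, COX2, ATP6 and ATP8 had no row of their own and were not analysed here, nor were the 2 ribosomal RNAs and the 22 transfer RNAs.

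Total RNA from mouse fibroblasts had been hybridised to Affymetrix Mouse Gene 2.0 ST arrays, 1 array per RNA sample, with 2 arrays labelled Zip13KO and 2 labelled WT. Zip13 is the protein of Slc39a13, a zinc transporter of the secretory pathway; the design text writes the mutant as Zip13-/-, and the comparison asks how expression differs where this transporter is missing. The replicates are called biological. No source used here tells whether they were separate animals or cultures, nor the strain, the age or the tissue the cells were taken from, so p-values measure only the spread between these samples, part of which may be technical. Slc39a13 itself had log2 intensities of 8.89 and 8.98 on the arrays labelled Zip13KO, against 8.94 and 8.85 on the WT arrays, a difference of 0.04 (SE 0.075, limma adjusted p = 0.820). Where its probes sit in relation to the deleted stretch is unknown, which leaves the labels unchecked by this value, and directions are given by the labels.

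The median intensity of an array lay between 94.5 and 96.1 and the highest between 10432 and 10826. Of the fibroblast markers, Vim, Thy1, Col1a1 and Col1a2 had log2 intensities above 10 on every array, while Lum and Fap stayed below the array medians. Fibroblast markers moved between the groups too. Of 10, 1 rose (Pdgfra, 1.04 log2 units) and 4 fell, where limma called 7.00% of all genes higher and 10.1% lower. The differences of those 4 were -0.92 for Pdgfrb, -0.89 for Col1a1, -0.46 for Col1a2 and -0.17 for Vim. Without WT replicate 1, Vim was at -0.13. The 24 measured markers of epithelium, endothelium, blood cells, muscle and fat had mean log2 intensities of at most 7.54, and their summed intensity was 2626 to 2681 on the Zip13KO arrays and 2547 to 2699 on the WT arrays. Among these 24, 1 rose, Cd68 by 0.40, and 1 fell, Csf1r by 0.26 (limma adjusted p = 0.0302 and 0.0390). Cd68 read 7.15 and 6.62 on the WT arrays, and without WT replicate 2 its difference was 0.13. Csf1r was at -0.19 without Zip13KO replicate 2 and at -0.22 without WT replicate 1. The calls on Cd68, Csf1r and Vim did not hold in all of the fits that leave out an array. No marker was at 0, since an array gives every row a background signal. The part of these markers in the results below was not tested.

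The mitochondrial genome is a small circle present in many copies in each cell. Both of its strands are read by a single-subunit polymerase into long transcripts, which are cut at the transfer RNAs into separate messages. Its protein genes analysed here all encode membrane subunits of the respiratory chain, where they are built together with many subunits encoded in the nucleus. ND genes belong to complex I, which oxidises NADH, CYTB to complex III, and COX genes to complex IV, which passes electrons to oxygen. ND6 is the only protein gene read from the light strand; the others come from the heavy-strand transcript.

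All 10 mitochondrially encoded genes rose on the arrays labelled Zip13KO, each by a modest amount. The differences ran from 0.21 log2 units (CYTB) to 0.47 (ND6), which is 15.3% to 39.0% higher, with a median of 0.30 and standard errors of 0.055 to 0.083. Each of the 10 passed the threshold of an adjusted p under 0.05 in limma, where 17.1% of all genes tested passed, 7.00% higher and 10.1% lower, and the median difference was -0.0034. On each gene both Zip13KO arrays lay above both WT arrays, an arrangement that 24.1% of all genes shared, while 27.3% had the opposite one. The mean log2 intensity over the 10 genes was 12.61 and 12.70 on the Zip13KO arrays, against 12.31 and 12.35 on the WT arrays. In RNA from a whole culture, more of a transcript per cell and more cells rich in it cannot be told apart, and the array gives each transcript relative to the other RNA on it. With all 41345 rows fitted and adjusted over, 4 of the 10 passed (ND2, COX3, ND4L and ND5), and without WT replicate 1, 6 of the 10 passed.

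**Figure D1:**
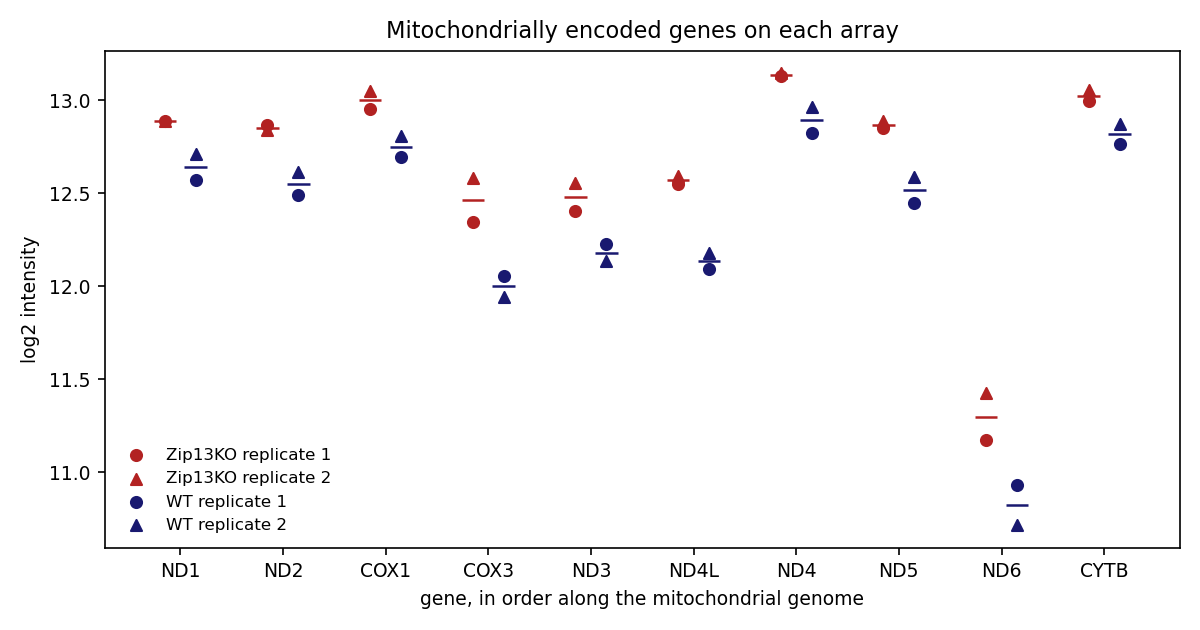
Log2 intensity of the 10 mitochondrially encoded genes on each array, with genes in their order along the mitochondrial genome, Zip13KO arrays left of WT arrays, circles and triangles for replicates 1 and 2 and a line at the mean of each group (n = 2). Both Zip13KO points lie above both WT points for all 10 genes; heights of different genes rest on different probes and are not comparable.

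Among the complex I genes, all 7 rose, by 0.24 to 0.47 log2 units with a median of 0.30. ND1, whose protein forms the join between the membrane arm and the quinone site, had log2 intensities of 12.89 and 12.89 on the Zip13KO arrays, against 12.57 and 12.71 on the WT arrays. The Zip13KO arrays coincided while the WT arrays were 0.14 apart, and the lowest Zip13KO value exceeded the highest WT value by 0.18. The difference was 0.25 (SE 0.057, 95% interval 0.13 to 0.37, adjusted p = 0.00479). Without WT replicate 1 it was 0.18 and did not pass (adjusted p = 0.139).

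ND2, ND4 and ND5 encode the large proton-pumping subunits of the membrane arm. ND2 stood at 12.87 and 12.84 in log2 intensity on the Zip13KO arrays, against 12.49 and 12.61 on the WT arrays, so that the groups were 0.22 apart at their nearest. It rose by 0.30 (SE 0.057, adjusted p = 8.64e-04) and passed with each array left out in turn. For ND4 the log2 intensities were 13.13 and 13.14 on the Zip13KO arrays, against 12.82 and 12.96 on the WT arrays. As for ND1, the Zip13KO arrays nearly coincided and the spread lay between the WT arrays. ND4 rose by 0.24 (SE 0.056, adjusted p = 0.00441), and without WT replicate 1 its difference of 0.17 did not pass (adjusted p = 0.135). ND5 gave 12.85 and 12.88 on the Zip13KO arrays, against 12.45 and 12.58 on the WT arrays, with no overlap. Its rise of 0.35 (SE 0.057, adjusted p = 2.27e-04) was the largest among these pump subunits, although whether it exceeds theirs was not tested.

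The remaining complex I genes encode small membrane subunits. ND4L, which lies just before ND4 and overlaps its start in the RefSeq gene table, had log2 intensities of 12.55 and 12.59 on the Zip13KO arrays, against 12.09 and 12.18 on the WT arrays. Of the 10 genes it had the widest clearance between groups, 0.37 log2 units, and the smallest adjusted p (1.60e-05). The rise was 0.44 (SE 0.056, 95% interval 0.32 to 0.56), or 35.5%, while ND4, known to be carried on the same mature message, rose by 18.4%. The 95% intervals of these neighbours overlapped (0.32 to 0.56 for ND4L and 0.13 to 0.36 for ND4), and the difference between them was not tested.

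ND3 showed 12.41 and 12.56 on the Zip13KO arrays, against 12.22 and 12.14 on the WT arrays, a rise of 0.30 (SE 0.062, adjusted p = 0.00179). Here the Zip13KO arrays were the more widely spread, by 0.15. ND6, the light-strand gene, had log2 intensities of 11.17 and 11.43 on the Zip13KO arrays, against 10.93 and 10.72 on the WT arrays. Both groups were widely spread, by 0.25 and 0.22, and still did not overlap. Its difference of 0.47 (SE 0.083, 95% interval 0.30 to 0.65, adjusted p = 4.26e-04) was the highest of the 10 with the largest standard error, and its interval overlapped those of the 9 heavy-strand genes. ND6 overlaps the end of ND5 in the RefSeq gene table, and it was at 0.35 without Zip13KO replicate 2 and at 0.60 without Zip13KO replicate 1.

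Both complex IV genes rose. COX1 encodes the catalytic subunit of cytochrome c oxidase, which holds the site where oxygen is reduced, and it had log2 intensities of 12.95 and 13.05 on the Zip13KO arrays, against 12.69 and 12.80 on the WT arrays. The groups were separated by 0.15, and the difference was 0.25 (SE 0.057, adjusted p = 0.00387). COX1 lost its call when WT replicate 1 was left out (0.20, adjusted p = 0.0863) and after a further quantile normalization, which brought it to 0.14 (adjusted p = 0.0781). COX3, another core subunit, stood at 12.35 and 12.58 on the Zip13KO arrays, against 12.06 and 11.94 on the WT arrays. It rose by 0.46 (SE 0.070, 95% interval 0.32 to 0.61, adjusted p = 9.94e-05), which is 37.9%, and passed with every array left out in turn, at 0.35 to 0.58. The intervals of COX1 and COX3 overlapped.

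CYTB, the cytochrome b of complex III, had log2 intensities of 12.99 and 13.05 on the Zip13KO arrays, against 12.77 and 12.87 on the WT arrays. It had the smallest difference of the 10, 0.21 (SE 0.055, 95% interval 0.090 to 0.32, adjusted p = 0.0131), and the narrowest clearance between groups, 0.12. This was close to the 0.10 between its WT arrays. CYTB was also the gene whose call was lost most often: it was at 0.15 without WT replicate 1 (adjusted p = 0.218), at 0.096 after a further quantile normalization (adjusted p = 0.193), and did not pass without a trend in the variance model (adjusted p = 0.0894).

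**Figure D2:**
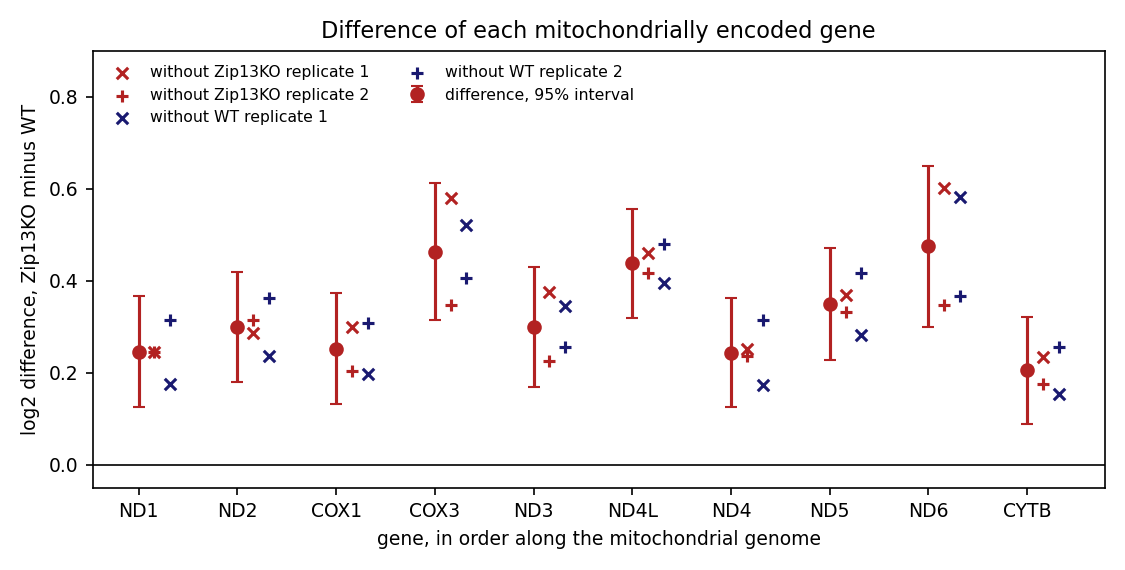
Log2 difference, Zip13KO minus WT, of each mitochondrially encoded gene with its 95% interval from the limma fit (filled circles and bars), and the difference with each array left out in turn (crosses and plus signs). The intervals of the 10 genes lie above 0 and each overlaps the others; leaving out an array moved ND6 between 0.35 and 0.60 and ND1 between 0.18 and 0.32.

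The genes fell into sets by how they differed between replicates. For ND1, ND2, COX1, ND4L, ND4, ND5 and CYTB, WT replicate 2 lay above WT replicate 1, by 0.085 to 0.14 log2 units. For COX3, ND3 and ND6 it lay below, by 0.11, 0.089 and 0.22. The same 3 genes had the widest spread on the Zip13KO arrays, where replicate 2 exceeded replicate 1 by 0.23 for COX3, 0.15 for ND3 and 0.25 for ND6, against at most 0.095 (COX1) for the other 7. COX3 and ND3 follow each other on the mitochondrial genome, whereas ND6 lies apart from them and on the other strand. Without WT replicate 1, the 4 genes that no longer passed (ND1, COX1, ND4 and CYTB) were of the larger set, while COX3, ND3 and ND6 were then at 0.52, 0.34 and 0.58. These sets were noticed in the data and the difference between them was not tested.

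Copies of mitochondrial sequence also lie in the nuclear genome, and RNA from a near-identical copy could not be separated on the array. The probes of these genes read near the top of the array's range, with intensities from 1682 to 9047, where array signals are known to be compressed. Nuclear genes in that range went both ways. Of 362 nuclear genes with a mean log2 intensity at or above that of ND6, 52 rose and 79 fell (14.4% and 21.8%), with a median difference of -0.030, and for 29.3% both Zip13KO arrays lay above both WT arrays. The median difference of the 10, 0.30, was reached by 20 of these 362 nuclear genes, and CYTB's difference by 41. Leaving out ND6, the dimmest row, 36 nuclear genes were as bright as the other 9, and of these 3 rose and 5 fell, with a median difference of -0.021. With arrays centred on the 362 bright nuclear genes, a setting chosen after the data had been seen, the 10 genes all passed, at 0.26 to 0.53. The calls over all genes were then 2299 higher and 1759 lower, against 1552 higher and 2234 lower as deposited.

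**Figure D3:**
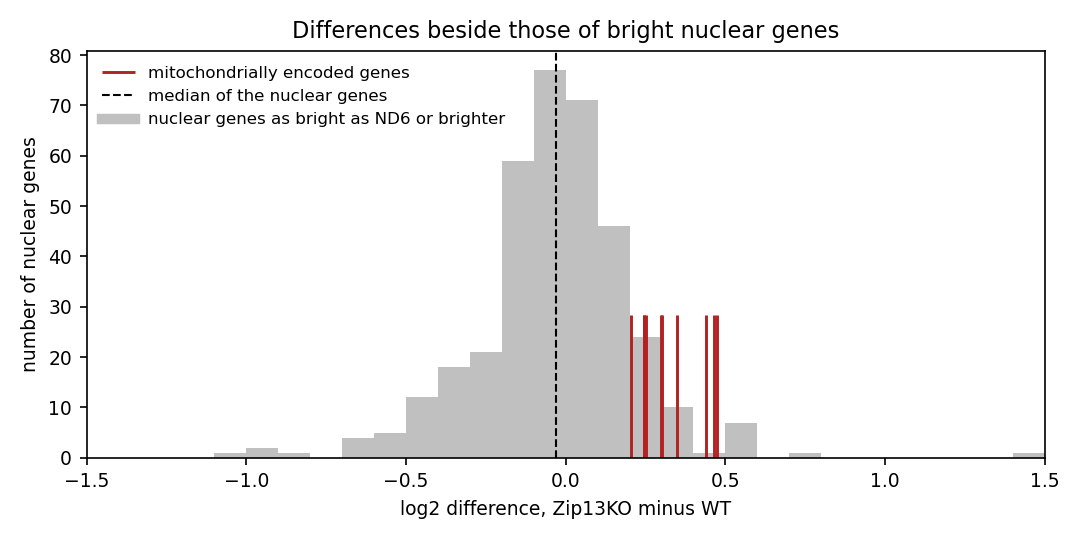
Histogram of the log2 difference, Zip13KO minus WT, for the 362 nuclear genes at least as bright as ND6 (grey, bins of equal width, 1 gene outside the plotted range), with their median (dashed) and the 10 mitochondrially encoded genes (red lines). The red lines lie between 0.21 and 0.47, to the right of the dashed line at -0.030.

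Of the 20 measured nuclear genes that read and copy the mitochondrial genome, 5 rose and the other members did not pass in limma, beside 7.00% of all genes higher and 10.1% lower. The median difference was 0.076. At an unadjusted p under 0.05, 7 were higher and 0 lower. Twnk, the helicase that unwinds mitochondrial DNA for copying, had log2 intensities of 8.75 and 8.84 on the Zip13KO arrays, against 8.39 and 8.25 on the WT arrays, a rise of 0.47 (adjusted p = 2.61e-04). Polrmt, the polymerase that transcribes all 10 genes, stood at 8.45 and 8.51 on the Zip13KO arrays, against 8.19 and 8.16 on the WT arrays, a rise of 0.30 (adjusted p = 0.00775). The nuclease-helicase Dna2 and the ligase Lig3, which also act in the nucleus, rose by 0.32 and 0.29, and the topoisomerase Top1mt rose by 0.24. Tfam, which packages the genome and starts its transcription, was at 0.18 (adjusted p = 0.177), and Tfb2m, which opens the promoters, at 0.094 (adjusted p = 0.575), so neither passed. The count of 5 dropped to 3 without Zip13KO replicate 2, without WT replicate 1 and without WT replicate 2. Polrmt and Twnk passed in 4 of the 4 fits that leave out an array, and Dna2, Lig3 and Top1mt in 3, 2 and 1 of them.

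Among 27 genes that process or stabilise mitochondrial RNA, 4 rose and 1 fell (7.00% and 10.1% of all genes), with a median of 0.10. Lrpprc, which keeps mitochondrial messages from decay, rose by 0.28 (limma adjusted p = 0.0166). So did the RNA-granule protein Grsf1 (0.36), the nuclease Pnpt1 (0.31) and the pseudouridine synthase Pus1 (0.35), while Trit1, which modifies transfer RNAs, fell by 0.26. With single arrays left out, differences ran from 0.18 to 0.37 for Lrpprc, 0.27 to 0.45 for Grsf1, 0.22 to 0.40 for Pnpt1 and 0.28 to 0.42 for Pus1. Grsf1 kept its call in each of these fits, while Lrpprc, Pnpt1 and Pus1 did not keep theirs in all of them. The call on Trit1 was lost in each of the 4 fits that leave out an array, where its difference ran from -0.28 to -0.25. Of 13 regulators of mitochondrial biogenesis 1 rose and 2 fell: the coactivator Ppargc1b rose by 0.29, a call lost without Zip13KO replicate 2 and without WT replicate 2, and the kinase subunit Prkaa2 and the transcription factor Gabpa fell by 0.57 and 0.35.

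Of 32 nuclear complex I subunits 3 rose and 3 fell, shares near the 7.00% and 10.1% of all genes, with a median of 0.019; Ndufs8, Ndufv1 and Ndufa11 rose by 0.34, 0.25 and 0.25, and Ndufb11, Ndufa7 and Ndufb6 fell by 0.36, 0.34 and 0.29. The rises dropped to 1 without Zip13KO replicate 1 and without WT replicate 2, and the falls to 1 without WT replicate 1. None of 8 nuclear complex III subunits passed in limma, where an unadjusted p under 0.05 was reached by 1, Uqcr11 at 0.18 (adjusted p = 0.158). Of 13 nuclear complex IV subunits, Cox8a and Cox5b rose (0.26 and 0.24) and Cox4i1 fell (-0.32), with a median of -0.039; 1 of these passed without WT replicate 1. Complex II, which has no mitochondrially encoded subunit, had 1 of 4 lower, Sdhb at -0.25; this call was lost without WT replicate 1, where 1 other subunit rose, and without WT replicate 2, and 2 subunits fell without Zip13KO replicate 2. Assembly factors of complexes I, III and IV gave 4 higher and 5 lower of 33, again beside 7.00% and 10.1% of all genes, with Ndufaf3 (0.50), Foxred1 (0.48), Cox15 (0.38) and Ndufaf1 (0.34) higher and Coa3 (-0.49), Timmdc1 (-0.49), Ndufaf4 (-0.42), Cox17 (-0.30) and Coa6 (-0.26) lower. Cox17 and Coa6 passed in 2 and 1 of the 4 fits that leave out an array. The difference between the mitochondrially encoded genes and these lists was not tested.

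Of 15 genes of mitochondrial mass and quality control, 4 rose and 2 fell (7.00% and 10.1% of all genes). The matrix proteases Lonp1 and Clpp rose by 0.52 and 0.40, as did Bnip3 (0.33) and Hspa9 (0.25). The protease Yme1l1 and the import receptor Tomm20 fell by 0.38 and 0.35. With single arrays left out, the lowest differences were 0.38 for Lonp1, 0.37 for Clpp, 0.26 for Bnip3 and 0.20 for Hspa9. The smallest falls were then -0.33 for Yme1l1 and -0.32 for Tomm20. Calls on Bnip3 and Hspa9 did not hold in all of these fits, while those on Lonp1, Clpp, Yme1l1 and Tomm20 did. In the list of fusion and fission genes 4 of 9 fell (10.1% of all genes) and none rose in limma, with none higher at an unadjusted p under 0.05: Opa1 by 0.42, Mfn1 by 0.25, Mfn2 by 0.24 and Dnm1l by 0.22. That count was 1 without WT replicate 1 or Zip13KO replicate 1, and 2 without WT replicate 2.

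**Figure D4:**
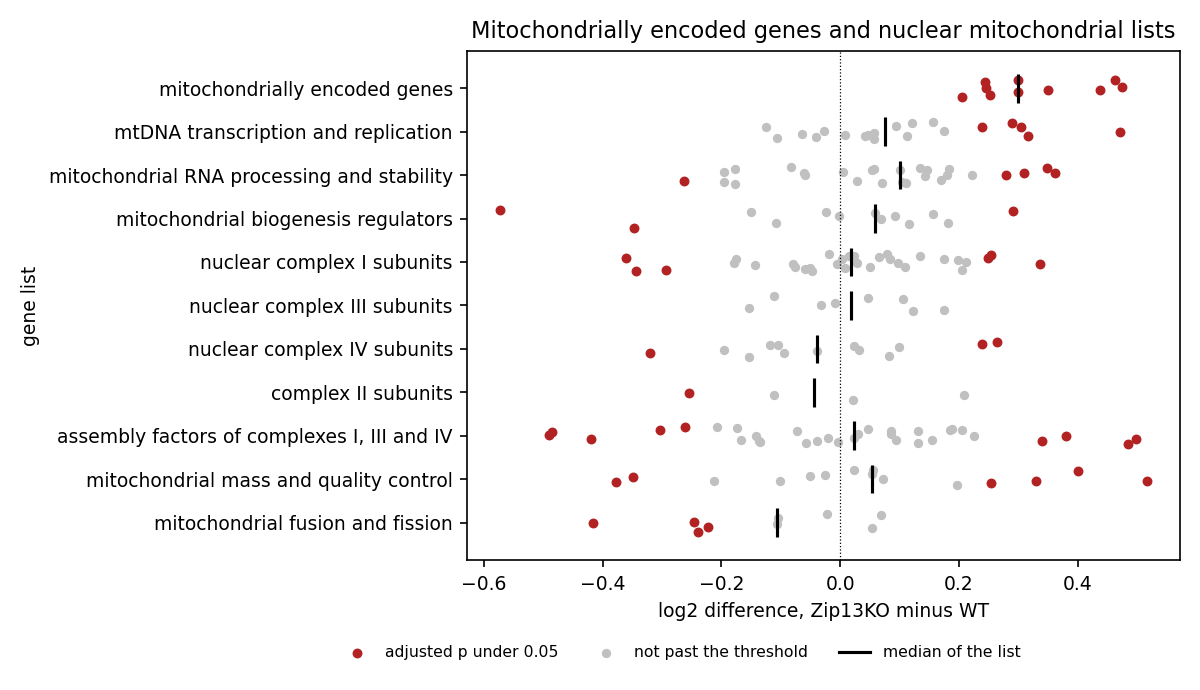
Log2 difference, Zip13KO minus WT, of each gene in the mitochondrially encoded group and in 10 nuclear lists, with genes past the threshold in red, the others in grey and the median of each list as a black line. The top group lies wholly to the right of 0 with a median of 0.30, and the medians of the nuclear lists lie between -0.11 and 0.10; vertical scatter within a list carries no value.

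The nuclear genes whose profile over the 4 arrays was nearest to the mean profile of the 10 were Aar2, Foxred2 and Steap1, out of 12367 compared. Likeness was the Euclidean distance between log2 values centred on each gene, which was 0.018, 0.019 and 0.023 for these genes. The 10 genes themselves lay 0.078 (ND5) to 0.26 (ND6) from their own mean. Aar2, Foxred2 and Steap1 rose by 0.32, 0.32 and 0.31, which follows from their choice by likeness in these same values. The 12367 genes compared had means above the median of all rows, with predicted genes, RIKEN names and small RNAs left out.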

How the data were processed

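Values are intensities on a linear scale, as the authors deposited them; the submitters' processing notes list Affymetrix Expression Console and RMA, with no version of either. RMA subtracts background, brings arrays to one distribution and combines probes. Normalization of this kind hides a change shared by most genes. Since the planned test needs log2 values, log2 was taken first, with no pseudocount. Names came from the platform annotation: of 41345 rows, 23521 had 1 symbol, 1814 several and 16010 none. Of those with 1 symbol, 23328 matched RefSeq (GRCm38.p6), used for names, chromosome, gene type and gene order. The brightest row per gene was kept and no intensity filter applied. The test, taken as two-sided, was limma's (3.58.1, in R 4.3.3), by lmFit and eBayes with a trend, with 2 residual and 15.1 prior degrees of freedom, with Benjamini-Hochberg adjustment over 22180 genes. With 2 arrays a group, the smallest two-sided p of an exact permutation test is 0.333, so calls rest on limma. Alternatives were the replicate block, a filter on low values, other scaling and variance settings, averaged rows, all rows fitted, and single arrays omitted.

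The members and the 10 nuclear and 6 marker lists were chosen with earlier results of these data known. Named nuclear genes are, per list, up to 4 with the largest difference past the threshold or else the smallest p, with Polrmt, Tfam, Tfb2m and Lrpprc; the bright-gene comparison was added later. Top1mt, Trit1, Ndufv1, Ndufa11, Bnip3, Hspa9, the fibroblast markers Vim, Thy1, Lum and Fap, and 5 assembly factors (Cox15, Ndufaf1, Ndufaf4, Cox17 and Coa6) fall outside this rule and were named after their values were seen. Slirp had no row of its own. Replicate numbers did not pair the arrays: deviations from group means correlated at -0.158 over genes between the first replicates.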

Additional observations from a re-analysis of the deposited data

How the results depend on the processing

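All 10 mitochondrially encoded genes stayed higher on the Zip13KO arrays under each of the 16 alternatives, 160 of 160 values, and 19 of these values did not pass the threshold. A fit and adjustment over all rows of the table took the calls over all genes to 1806 and left 4 of the 10 past the threshold. Since the rows fitted do not change a difference, COX1 (0.25), CYTB (0.21), ND1 (0.25), ND3 (0.30), ND4 (0.24) and ND6 (0.47) kept their values and lost their calls, with adjusted p from 0.0685 to 0.125. The standard error of ND1 was 0.063 there, against 0.057 in the fit over genes. Adjusting that fit over genes alone, an alternative chosen after seeing the data, gave 2124 calls and again 4 of the 10, with the same differences for the others, whereas fitting genes but adjusting over all rows, chosen likewise, gave 3428 calls and 10 of 10; why the wider fit gives fewer calls was not tested further. The fit over all rows also left 5 assembly factors, 1 complex I subunit, 1 transcription and replication gene, and 0 genes each of RNA processing, complex IV, complex II and fusion and fission past the threshold. A further quantile normalization put COX1 at 0.14 and CYTB at 0.096, neither past it, and eBayes without a trend left CYTB (0.21) not past it; the cause was not tested. Complex II had 2 genes past the threshold after the quantile normalization and 2 after a filter on low values.

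With each array left out in turn, in fits that assume a lone array varies like the other group, the count of the 10 past the threshold ran from 6 (without WT replicate 1) to 10. Differences ran from 0.20 to 0.31 for COX1, 0.15 to 0.26 for CYTB, 0.18 to 0.32 for ND1 and 0.17 to 0.31 for ND4. List counts ran from 3 to 5 for transcription and replication, 2 to 5 for RNA processing, 1 to 3 for complex IV, 0 to 2 for complex II and 1 to 4 for fusion and fission.

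With the replicate number as a block, 3364 genes passed, 10 of them mitochondrially encoded, with 1 fusion and fission gene and 0 complex II genes; the counts of the other lists stayed within 1.5 times. The labels give the arrays only a number in common. With the numbers crossed between groups, a pairing tried after seeing the data, 5208 genes passed. Another row could not be tried for any of the 10, which have 1 row each. The number of arrays limits the precision throughout.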
